A study of Mus musculus with 42 samples.

Results

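Annexins and S100 proteins are 2 families of calcium-binding proteins. Annexins bind to membrane phospholipids when calcium rises, and S100 proteins form dimers that bind target proteins, several annexins among them. In diseased liver both families are known from cells that are scarce in healthy parenchyma, such as macrophages, neutrophils, bile duct cells and activated stellate cells, and S100a8 and S100a9 are classic products of neutrophils and monocytes. The genes described here were chosen by name: the annexins Anxa1, Anxa2, Anxa3 and Anxa5 and the S100 genes S100a4, S100a6, S100a8, S100a9, S100a10 and S100a11. These are 10 of 54446 genes in the count table. Of the 10 genes, 9 had enough counts to be tested, as had 15574 genes in all.

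Expression was measured by RNA sequencing of whole liver from 42 female APOE*3-Leiden mice, which carry a human apolipoprotein E variant that slows the clearance of lipoproteins, with 1 library per mouse. The chow group was a healthy reference on maintenance chow (n = 10). The WTD group (n = 16) had a Western-type diet with 15% cocoa butter, 40.5% sucrose and 1% cholesterol, and the atorvastatin group (n = 16) had the same diet with the statin mixed in. Both WTD groups were 8 to 14 weeks old at the start and had the diet for a run-in of 3 weeks and then for 32 weeks. Cholate (0.05%) was added to their diet from week 22. The atorvastatin dose was 3.0 mg/kg/day and was raised to 4.5 mg/kg/day from week 5. All mice of the table were sampled at week 32, and diet and cholate cannot be told apart in the comparison with chow. In whole liver, fewer cells of a type and less RNA per cell cannot be told apart either.

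The number of counts per library ranged from 15661381 to 36224054, with medians of 20405093.5 in chow, 21095129 in WTD and 18180048.5 in atorvastatin. In 9 libraries (3 chow, 5 WTD, 1 atorvastatin), over 20% of the genes that averaged 1 to 2 CPM (counts scaled to a common library size) in the other mice of the group had no count at all. These are called sparse libraries here, and results are given without them where that matters. They are mice 2, 5 and 6 of the chow group, mice 8, 9, 10, 15 and 16 of the WTD group and mouse 8 of the atorvastatin group. The tissue label was checked with 8 hepatocyte markers, which together held a median of 127727 CPM in chow, 69237 CPM in WTD and 108715 CPM in atorvastatin.

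The annexin genes lie apart from each other in the genome (GRCm38), while the S100 genes lie together. Anxa1 is on chromosome 19 (20373428 to 20390944, minus strand), Anxa2 on chromosome 9 (69453620 to 69491795, plus strand), Anxa3 on chromosome 5 (96793339 to 96845966, plus strand) and Anxa5 on chromosome 3 (36448923 to 36475894, minus strand). All 6 S100 genes lie within 2961 kb of chromosome 3, a stretch with 68 protein-coding genes of which 8 are S100a genes. S100a4 (90603771 to 90606045), S100a6 (90612882 to 90624181) and S100a8 (90668978 to 90670035), on the plus strand, and S100a9 (90692632 to 90695721, minus strand) are at one end. S100a11 (93520488 to 93526287) and S100a10 (93555080 to 93564643), both on the plus strand, are at the other end, and skin genes such as the small proline-rich and late cornified envelope genes lie in between.

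WTD feeding raised 8 of the 9 tested genes and lowered none, with called differences defined by an adjusted p under 0.01. In the whole table, 17.5% of tested genes were called higher and 16% lower in WTD-fed than in chow-fed mice. The median log2 fold change of the 9 genes was 2.11, beside 0.03 over all tested genes. S100a10 was the exception, and S100a8, among the raised genes, passed the filter on counts mainly through the groups on WTD. In atorvastatin-treated mice compared with WTD-fed mice, Anxa2, Anxa3, Anxa5 and S100a11 were called lower (4 of 9) and none was called higher. All 9 log2 fold changes were negative, with a median of −0.72, beside 0.0016 over all tested genes. Of all tested genes, 4.84% were called higher and 2.26% lower in that comparison. With RLE instead of TMM scaling, these shares were 3.74% and 3.08%, and the same number of the 9 genes was called lower (4). Compared with chow-fed mice, atorvastatin-treated mice had 6 of the 9 genes called higher and none lower, and their median log2 fold change was 1.39. Over all tested genes, 14.2% were called higher and 10.7% lower there, and the median was 0.04. In WTD-fed mice 4 of the 9 genes (the annexins) were above the highest chow-fed mouse in every mouse, as were 3.4% of all tested genes. In treated mice this held for 3 of the 9 (Anxa2, Anxa3 and Anxa5) and for 2.88% of all tested genes. The comparisons share mice, so they are not independent of each other.

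**Figure D1:**
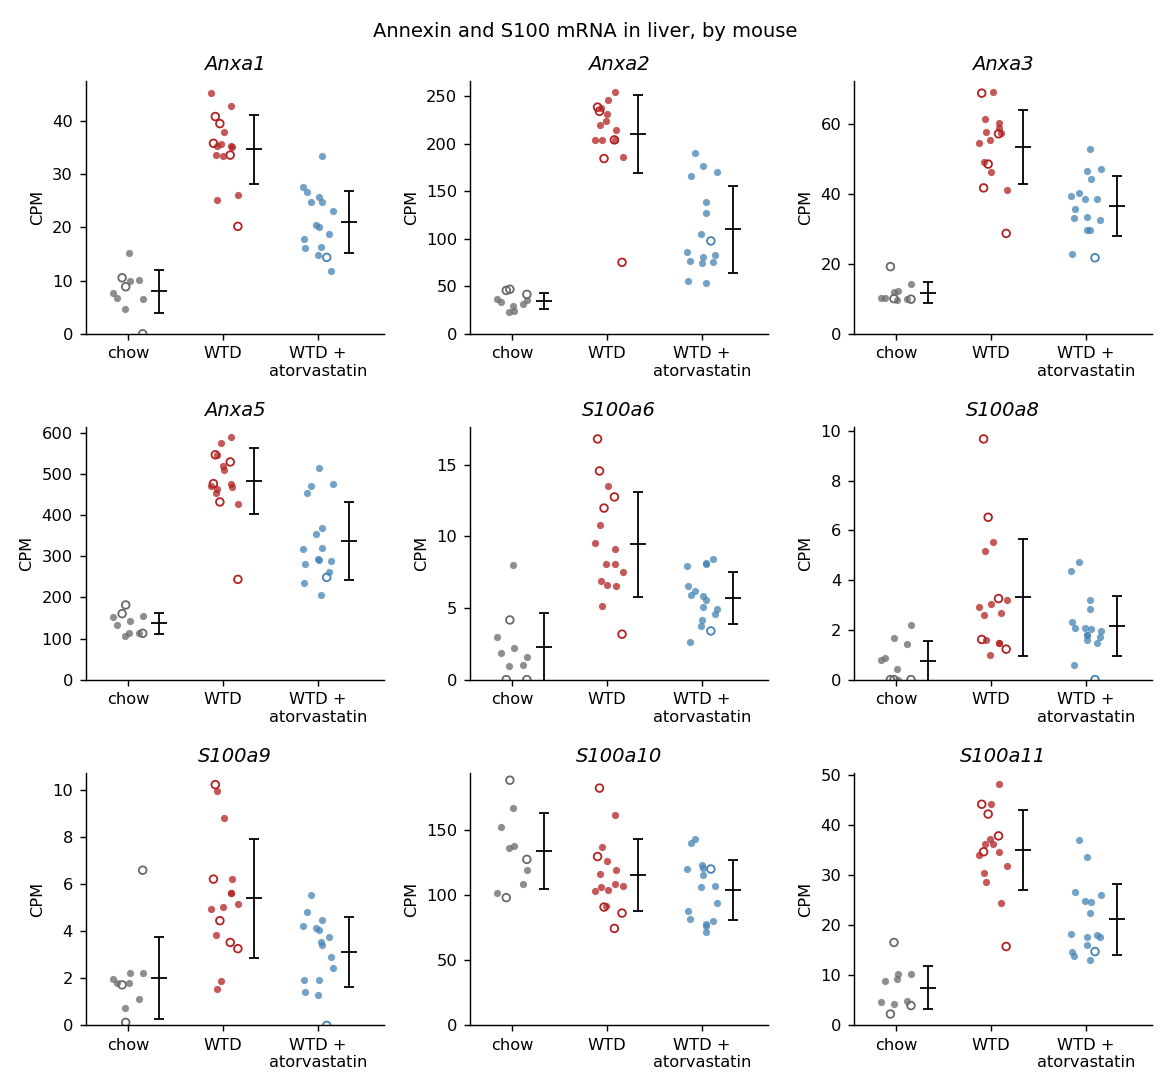
Expression of the 9 tested genes in CPM (vertical axes, linear, each from 0) for each mouse of the 3 groups. Points are mice, open circles are the 9 sparse libraries, and the bars beside the points give the mean and SD (cut off at 0). All 16 WTD-fed mice lie above the highest chow-fed mouse for the 4 annexins, and S100a10 overlaps in all groups.

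Anxa2 had the largest diet effect of the annexins. Its protein binds membranes and actin, pairs with S100a10 and presents plasminogen activator at the cell surface. Its expression was 23.0 CPM in the lowest chow-fed mouse, 34.4 CPM in the median one and 46.8 CPM in the highest. In WTD-fed mice the lowest value was 75.2 CPM, the median 217 CPM and the highest 254 CPM, so the groups did not overlap. The difference was 2.60 on the log2 scale (SE 0.21, edgeR adjusted p = 6.16e-14). With atorvastatin the lowest value was 53.0 CPM, the median 91.8 CPM and the highest 190.5 CPM. All 16 treated mice were below the WTD median and above the highest chow-fed mouse. The log2 fold change against WTD was −0.94 (SE 0.16, edgeR adjusted p = 9.39e-05) and that against chow was 1.67 (SE 0.20, edgeR adjusted p = 5.27e-09).

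The 75.2 CPM belonged to WTD-fed mouse 15, one of the sparse libraries, and the next WTD-fed mouse had 184 CPM. Of the 16 treated mice, 15 were below that second value. The library of mouse 15 lacked 20.4% of the genes at 1 to 2 CPM, just over the limit of 20%, and had 25871885 counts. WTD-fed mice 9 and 10 lacked 43.3% and 48.7% and had 238 and 234 CPM of Anxa2. What sets mouse 15 apart was not tested. WTD-fed mouse 15 was the lowest of its group for 6 of the 9 tested genes (Anxa1, Anxa2, Anxa3, Anxa5, S100a6 and S100a11). Without this mouse the Anxa2 difference between atorvastatin and WTD was −0.996 on the log2 scale (SE 0.15, edgeR adjusted p = 3.98e-06). The treated mice were spread out as well. Atorvastatin-treated mice 1 to 4 had 177, 190.5, 166 and 170.5 CPM of Anxa2, and the fifth highest had 139 CPM. The same 4 mice were the 4 highest of the treated group for Anxa5 and S100a11. Their mouse numbers and library numbers are consecutive, and whether this order bears on the levels was not tested. The coefficient of variation of Anxa2 was 41.5% in treated mice, 19.7% in WTD-fed mice and 24.1% in chow-fed mice.

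Anxa5, a phosphatidylserine-binding protein widely used to stain dying cells, was the most abundant of the 9 genes per length in WTD-fed mice. It ranged from 107 CPM over a median of 138 to 182 CPM in chow-fed mice and from 244 CPM over a median of 476 to 591 CPM in WTD-fed mice. In treated mice the range was 206 to 515 CPM with a median of 307 CPM. The groups on WTD did not overlap with chow, with or without atorvastatin, but overlapped with each other. The log2 fold change was 1.82 for WTD against chow (SE 0.13, edgeR adjusted p = 6.12e-16), and −0.52 for atorvastatin against WTD (SE 0.11, edgeR adjusted p = 0.00069). Against chow, treated mice were 1.30 higher (SE 0.13, edgeR adjusted p = 2.39e-11). Of the 16 treated mice 14 were below the WTD median.

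Anxa3, an annexin known from neutrophils among other cells, was the best separated of the 9 genes between WTD and chow, at rank 49 by p among all tested genes. Its chow values ran from 9.53 CPM over a median of 10.2 to 19.2 CPM, and its WTD values from 28.7 CPM over a median of 56.3 to 69.2 CPM. Treated mice had 21.7 CPM at the lowest, 37.2 CPM at the median and 52.8 CPM at the highest. Every treated mouse was above the highest chow-fed mouse and below the WTD median. The log2 fold changes were 2.18 for WTD against chow (SE 0.14, edgeR adjusted p = 9.29e-19), −0.54 for atorvastatin against WTD (SE 0.11, edgeR adjusted p = 0.000428) and 1.64 for atorvastatin against chow (SE 0.14, edgeR adjusted p = 2.66e-14). Of the exon bases of Anxa3, 3.07% are shared with the predicted gene Gm42603.

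Anxa1, which binds formyl peptide receptors and is known to dampen neutrophil recruitment, rose on WTD as well. It went from 0 CPM over a median of 8.22 to 15.1 CPM in chow to 20.2 CPM over a median of 35.2 to 45.2 CPM in WTD, without overlap. The chow-fed mouse at 0 was mouse 2, a sparse library. The log2 fold change was 2.11 (SE 0.27, edgeR adjusted p = 8.72e-09). Treated mice had between 11.9 and 33.4 CPM with a median of 20.2 CPM, and 16 of 16 were below the WTD median. With all mice this difference of −0.72 (SE 0.21) was not called (edgeR adjusted p = 0.017). It was called at −0.72 (SE 0.13, edgeR adjusted p = 8.05e-05) when the chow-fed mouse at 0 was left out of the shared fit, and at −0.70 (SE 0.14, edgeR adjusted p = 0.000473) without all 9 sparse libraries. Against chow, treated mice were 1.39 higher (SE 0.26, edgeR adjusted p = 2.9e-05).

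Among the S100 genes, S100a11 followed the annexins most closely. Its protein pairs with Anxa1. The chow values ran from 2.27 CPM over a median of 6.81 to 16.6 CPM and the WTD values from 15.8 CPM over a median of 35.5 to 48.2 CPM. All but 1 of the WTD-fed mice (15 of 16) were above the highest chow-fed mouse, the exception being the sparse library of mouse 15. The log2 fold change was 2.22 (SE 0.23, edgeR adjusted p = 2.51e-11). With atorvastatin, S100a11 ran from 13.1 CPM over a median of 18.1 to 37.0 CPM, 0.72 lower than in WTD on the log2 scale (log2 fold change −0.72, SE 0.18, edgeR adjusted p = 0.00415). It was still 1.50 above chow (SE 0.22, edgeR adjusted p = 3.52e-07), with 11 of 16 mice above the highest chow-fed mouse.

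The promoters of Anxa2, Anxa5 and S100a11 are shown because these genes were called in both diet and drug comparisons and are in the RefSeq promoter table (GRCm38.p6), which holds 8 of the 10 genes. Each line gives 150 bases that end just before the first annotated base of the gene, 5′ to 3′ on the gene's strand. Capitals mark matches to 5 motifs that were searched on both strands: TATAAA, the AP-1 site TGANTCA, the GC box GGGCGG, the C/EBP-type motif TTGCNNAA and the ETS core GGAAGT. The windows are chr9:69453470-69453619 (plus strand), chr3:36475895-36476044 (minus strand) and chr3:93520338-93520487 (plus strand).
Anxa2: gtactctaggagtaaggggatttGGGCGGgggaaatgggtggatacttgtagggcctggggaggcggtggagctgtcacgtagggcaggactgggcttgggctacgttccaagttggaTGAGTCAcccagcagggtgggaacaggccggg
Anxa5: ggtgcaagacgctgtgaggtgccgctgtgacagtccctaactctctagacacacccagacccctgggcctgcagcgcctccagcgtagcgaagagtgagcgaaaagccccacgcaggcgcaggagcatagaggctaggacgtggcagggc
S100a11: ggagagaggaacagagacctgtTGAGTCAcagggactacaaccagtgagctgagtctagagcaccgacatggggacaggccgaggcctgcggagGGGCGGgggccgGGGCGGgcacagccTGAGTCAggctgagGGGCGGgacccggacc

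In the windows of 250 bases before the RefSeq start, Anxa2 and S100a11 were the only 2 of the 8 genes with a match to TGANTCA, which 6.75% of 32851 promoters in the table hold. S100a11 has 2 such matches. A match to GGGCGG, held by 32.7% of all promoters, was found in Anxa2, S100a11 and S100a9. TATAAA, held by 12.4%, was found in Anxa1, Anxa2, S100a4 and S100a8. TTGCNNAA (9.56% of all promoters) was found in Anxa1 and S100a9, and GGAAGT (19.7%) in Anxa1, S100a8, S100a9 and S100a11. The matches are descriptions of the letters, and no binding was measured.

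S100a6, a partner of annexins and of the calcyclin-binding protein, was scarce in chow and higher in WTD. Chow values ran from 0 CPM over a median of 1.73 to 7.98 CPM, and 2 chow-fed mice had no count, both of them sparse libraries (mice 2 and 5). WTD values ran from 3.17 CPM over a median of 8.58 to 16.8 CPM. The log2 fold change was 2.05 (SE 0.40, edgeR adjusted p = 3.39e-05), with 10 of 16 WTD-fed mice above the highest chow-fed mouse. Treated mice had a median of 5.69 CPM (2.65 to 8.44 CPM), and all 16 were below the WTD median. This difference of −0.73 (SE 0.32) was not called (edgeR adjusted p = 0.14), while that of 1.32 against chow was (SE 0.39, edgeR adjusted p = 0.00615). The call against chow was lost without chow-fed mouse 3, 4, 7, 8 or 9, each left out alone, with edgeR adjusted p between 0.01007 and 0.0143.

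S100a8 and S100a9 form calprotectin, an antimicrobial complex that neutrophils carry in large amounts and that signals through Tlr4 and the receptor Ager. Both were weakly expressed in all groups. S100a8 had a median of 0.603 CPM in chow (0 to 2.18 CPM), 2.80 CPM in WTD (1.01 to 9.68 CPM) and 1.99 CPM in atorvastatin (0 to 4.74 CPM), with 147, 1229 and 776 counts in all mice of each group. No count was found in 4 chow-fed mice (3 of them the sparse libraries) and in 1 treated mouse, the sparse library. S100a9 had a median of 1.79 CPM in chow (0.128 to 6.58 CPM), 5.09 CPM in WTD (1.54 to 10.2 CPM) and 3.48 CPM in atorvastatin (0 to 5.52 CPM). The groups overlapped for both genes.

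WTD feeding raised S100a8 by 2.15 on the log2 scale (SE 0.62, edgeR adjusted p = 0.00349) and S100a9 by 1.41 (SE 0.43, edgeR adjusted p = 0.00556). S100a8 had a median of 10 counts in chow and 64.5 in WTD and passed the filter on counts mainly through the groups on WTD. Its direction against chow was thus in part fixed by the filter. The S100a8 call also rested in part on the sparse libraries: without them the log2 fold change was 1.40 (SE 0.46, edgeR adjusted p = 0.01003). The S100a9 call was lost without chow-fed mouse 6, 7 or 8 or without WTD-fed mouse 5, each left out alone, with edgeR adjusted p between 0.0102 and 0.0129. Against WTD, atorvastatin gave −0.61 for S100a8 (SE 0.49, edgeR adjusted p = 0.506) and −0.79 for S100a9 (SE 0.35, edgeR adjusted p = 0.148), neither of them called. Against chow, treated mice showed 1.54 for S100a8 (SE 0.60, edgeR adjusted p = 0.0403) and 0.62 for S100a9 (SE 0.41, edgeR adjusted p = 0.258), again not called.

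S100a10, the partner that Anxa2 binds as a tetramer, was the only tested member whose expression was not called different between any 2 groups. It had a median of 132 CPM in chow (98.0 to 188 CPM), 108 CPM in WTD (74.4 to 182 CPM) and 107 CPM in atorvastatin (71.8 to 143 CPM), and all groups overlapped. The log2 fold changes were −0.21 for WTD against chow (SE 0.12, edgeR adjusted p = 0.158), −0.15 for atorvastatin against WTD (SE 0.11, edgeR adjusted p = 0.461) and −0.36 for atorvastatin against chow (SE 0.12, edgeR adjusted p = 0.0184). The last one was called lower, with edgeR adjusted p between 0.00873 and 0.00979, when chow-fed mouse 5 or treated mouse 2 or 3 was left out.

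S100a4, a marker often used for fibroblasts and macrophages, had 0 counts in all 42 mice and could not be tested. Of its exon bases, 51.7% are shared with the predicted gene Gm42674, which lies on the same strand (90601904 to 90605885) and also had 0 counts in all 42 mice. How the read pairs in shared bases were assigned was not tested, so the value of 0 is given as listed, with no statement on expression.

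**Figure D2:**
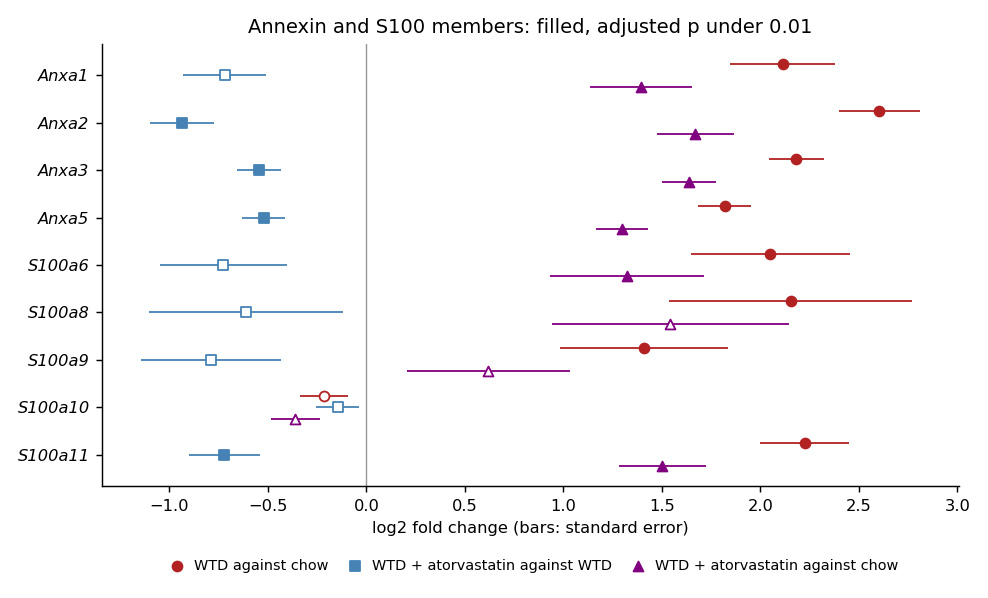
Log2 fold changes of the 9 tested genes (horizontal axis) in 3 comparisons, marked by symbol and colour, with standard errors as bars. Filled symbols have an edgeR adjusted p under 0.01. Diet effects of the 8 raised genes lie between 1.41 and 2.60, and atorvastatin effects against WTD lie between −0.94 and −0.15.

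Per kilobase of exon, the order of mean levels differed between the diets. All annotated exon bases of a gene were counted (3731 for Anxa2 and 511 for S100a11), and the order depends on this choice of length. In chow-fed mice S100a10 led with 110.2 CPM per kb (SD 24.0, n = 10), followed by Anxa5 with 77.1 CPM per kb (SD 14.3). S100a11 (14.7, SD 8.44) and Anxa2 (9.25, SD 2.23) came next and did not differ beyond their spread, and the other members were below 4 CPM per kb. In WTD-fed mice Anxa5 led with 272 CPM per kb (SD 45.4, n = 16). S100a10 (95.0, SD 22.9), S100a11 (68.6, SD 15.7) and Anxa2 (56.3, SD 11.1) followed, and the last 2 lay within their spread of each other. Anxa3 (14.7, SD 2.90), Anxa1 (11.9, SD 2.23) and S100a9 (10.3, SD 4.85) lay within their spread of each other, and S100a6 (6.89, SD 2.70) and S100a8 (4.78, SD 3.39) were lowest. In treated mice Anxa5 had 190 CPM per kb (SD 53.5), S100a10 85.8 (SD 19.1), S100a11 41.5 (SD 13.9) and Anxa2 29.4 (SD 12.2).

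The unequal change of partner genes was measured as the log2 ratio of their counts within each library, which does not depend on scaling between libraries. For Anxa2 over S100a10 the mean was −1.96 in chow (SD 0.50, n = 10), 0.86 in WTD (SD 0.42, n = 16) and −0.0028 in atorvastatin (SD 0.54, n = 16). All 16 WTD-fed mice were above the highest chow-fed mouse. The difference between WTD and chow was 2.82 (two-sided permutation test, p = 1e-05, the smallest that 100000 permutations can give, 6e-05 after adjustment over 6 tests). That between atorvastatin and WTD was −0.86 (permutation p = 5e-05, adjusted 0.00015), with 7 of 16 treated mice below the lowest WTD-fed mouse. Both differences follow from the changes of Anxa2 and S100a10 given above, in the same libraries, and are no separate result.

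For S100a8 over S100a9, the mean log2 ratio was −2.55 in chow (SD 3.13), −0.82 in WTD (SD 0.72) and −0.51 in atorvastatin (SD 0.56). The chow value was spread wide by mice without S100a8 counts. Neither difference passed a threshold of 0.05: 1.73 for WTD against chow (permutation test, adjusted p = 0.0723) and 0.31 for atorvastatin against WTD (permutation test, adjusted p = 0.274). Without the sparse libraries the first difference was 0.42 (permutation test, adjusted p = 0.837). For Anxa1 over S100a11 the mean was −0.42 in chow (SD 2.47), −0.00082 in WTD (SD 0.27) and 0.0017 in atorvastatin (SD 0.35). The differences of 0.42 and 0.0026 had permutation adjusted p of 0.785 and 0.982, and the first turned to −0.21 without the sparse libraries.

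**Figure D3:**
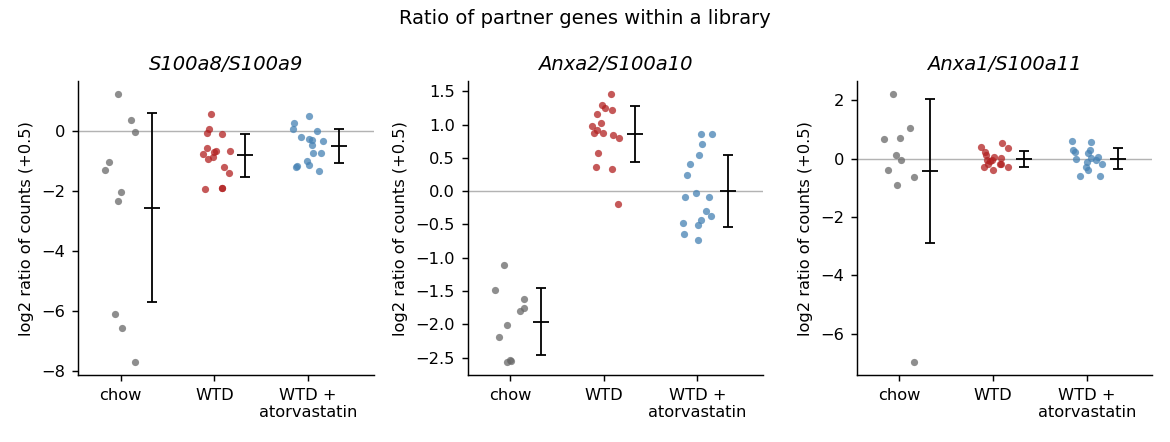
Log2 ratio of the counts of partner genes (0.5 added to each count) within each library, by group, with mean and SD beside the points. For Anxa2/S100a10 all 16 WTD-fed mice lie above all chow-fed mice, while S100a8/S100a9 and Anxa1/S100a11 overlap and are widest in chow.

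Partner genes were also compared across the mice of 1 group, on log2(CPM + 0.5). S100a8 and S100a9 had a Pearson r of 0.65 over the 16 WTD-fed mice (permutation p = 0.00668, adjusted over 9 relations 0.015), with a Spearman rho of 0.49 (permutation p = 0.0572, adjusted 0.129). Over the 16 treated mice r was 0.86 (permutation p = 0.00037, adjusted 0.00333) and rho 0.74 (permutation p = 0.00165, adjusted 0.013). Without the 2 mice farthest from the median, r was 0.45 and 0.52, so part of both values rested on these mice. Without the sparse libraries r was 0.75 in WTD (n = 11, permutation p = 0.00683, adjusted 0.0331). In treated mice it was then 0.65 (n = 15, permutation p = 0.00758, adjusted 0.0331). The sparse library of treated mouse 8 had 0 counts of both genes. Over the chow-fed mice r was −0.13 and rho −0.05 (permutation p = 0.717 and 0.893, n = 10).

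Anxa1 and S100a11 had an r of 0.71 (permutation p = 0.00425, adjusted 0.015) and a rho of 0.52 (permutation p = 0.0422, adjusted 0.127) in WTD. In atorvastatin r was 0.67 (permutation p = 0.00505, adjusted 0.015) and rho 0.71 (permutation p = 0.00289, adjusted 0.013). Without the 2 farthest mice the WTD value fell to 0.29 and the atorvastatin value was 0.78, and over the 11 WTD-fed mice without sparse libraries it was 0.43. The WTD relation thus rested on few mice. Anxa2 and S100a10 had r of 0.36 in WTD (permutation p = 0.184, adjusted 0.275), which turned to −0.30 without the sparse libraries (n = 11, permutation p = 0.373, adjusted 0.42), 0.42 in atorvastatin (permutation p = 0.101, adjusted 0.182) and −0.11 in chow (permutation p = 0.75, adjusted 0.75). Over all 36 pairs of the 9 genes, the median Spearman rho was −0.03 in chow, 0.35 in WTD and 0.55 in atorvastatin, a description over libraries that also share depth and sparseness.

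The genes whose levels ran most like Anxa2 over the 16 WTD-fed mice included Tchp (Spearman rho 0.89) and Atpif1 (0.86), out of 15565 genes compared. For S100a8 they were Pld3 (0.82), 4833407H14Rik (0.81) and Ssbp4 (0.81). These are descriptions over 16 libraries. With so many genes and so few mice, some high values also arise by chance, and none was tested.

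Of the other annexins, 7 of 8 were tested, and the same diet raised 4 of them and lowered none. The median log2 fold change was 0.43. Anxa4, an annexin of secretory epithelia, went from a median of 63.5 CPM in chow to 123 CPM in WTD (log2 fold change 0.94, SE 0.09, edgeR adjusted p = 2.25e-12). Anxa13, an intestine-type annexin (1.33, SE 0.26, edgeR adjusted p = 2.33e-05), Anxa9 (1.33, SE 0.31, edgeR adjusted p = 0.000295) and Anxa7 (0.43, SE 0.09, edgeR adjusted p = 5.34e-05) were the others. None of the 7 was called between atorvastatin and WTD in edgeR (median −0.20), and 3 were called higher than in chow (Anxa4, Anxa7 and Anxa13). At an unadjusted p under 0.05, Anxa4, Anxa6 and Anxa9 differed between atorvastatin and WTD in edgeR, with log2 fold changes of −0.26, 0.14 and −0.62.

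Of 10 other S100 genes only 4 were tested, 5 had too few counts and S100a3 had 0 counts in every mouse. The 0 of S100a3 is given as listed, with no statement on expression. S100a1, a regulator of calcium release in muscle, was lower in WTD than in chow (log2 fold change −0.60, SE 0.10, edgeR adjusted p = 9.75e-07), as was S100a13 (−0.57, SE 0.17, edgeR adjusted p = 0.00555). No gene of this list was called higher, and the median was −0.22. Against WTD none of the 4 was called (median −0.23), and at an unadjusted p under 0.05 S100a1, S100a16 and S100g were lower with atorvastatin in edgeR. The lower S100a1 and S100a13 were also called against chow in treated mice, at −0.84 and −0.75 (edgeR adjusted p = 7.44e-10 and 0.000419).

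Receptors and partners of the 2 families were mixed. Of 10 genes, 9 were tested, and 4 were called higher and 1 lower in WTD than in chow, and the list's median was 0.89 on the log2 scale. Tlr4, the receptor that calprotectin signals through, was higher at 2.02 (SE 0.27, edgeR adjusted p = 1.82e-08), with medians of 3.71 CPM in chow and 12.3 CPM in WTD. Plat, the tissue plasminogen activator that Anxa2 and S100a10 bind, was higher at 3.59 (SE 0.47, edgeR adjusted p = 3.08e-08), with medians of 1.68 and 21.1 CPM. Myh9, the non-muscle myosin heavy chain that S100a4 binds, was higher at 1.04 (SE 0.09, edgeR adjusted p = 2.63e-13), as was Ahnak, the large scaffold that the Anxa2 and S100a10 complex binds, at 0.89 (SE 0.14, edgeR adjusted p = 3.27e-07). Plg, plasminogen made by hepatocytes, was lower at −0.75 (SE 0.09, edgeR adjusted p = 4.33e-10).

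With atorvastatin, Ahnak was lower than in WTD by 0.59 (log2 fold change −0.59, SE 0.12, edgeR adjusted p = 0.000334), and Bsg, a receptor for S100a9, was lower at −0.21 (SE 0.05, edgeR adjusted p = 0.0051). Plg was higher at 0.40 (SE 0.08, edgeR adjusted p = 0.000286). Tlr4 (−0.48, SE 0.22, edgeR adjusted p = 0.16) and Plat (−0.78, SE 0.34, edgeR adjusted p = 0.139) were not called, with unadjusted p of 0.0347 and 0.028. The list's median was −0.21. Against chow, 3 of the 9 genes were higher and 2 lower in treated mice, with a median of 0.30: Plat, Tlr4 and Myh9 were higher, Plg and Bsg lower. The formyl peptide receptor Fpr2, a receptor of Anxa1, had 0 counts in all mice, and Fpr1, with medians of 1.87 to 2.73 CPM, was not called in any comparison. The 0 of Fpr2 is given as listed, with no statement on expression.

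**Figure D4:**
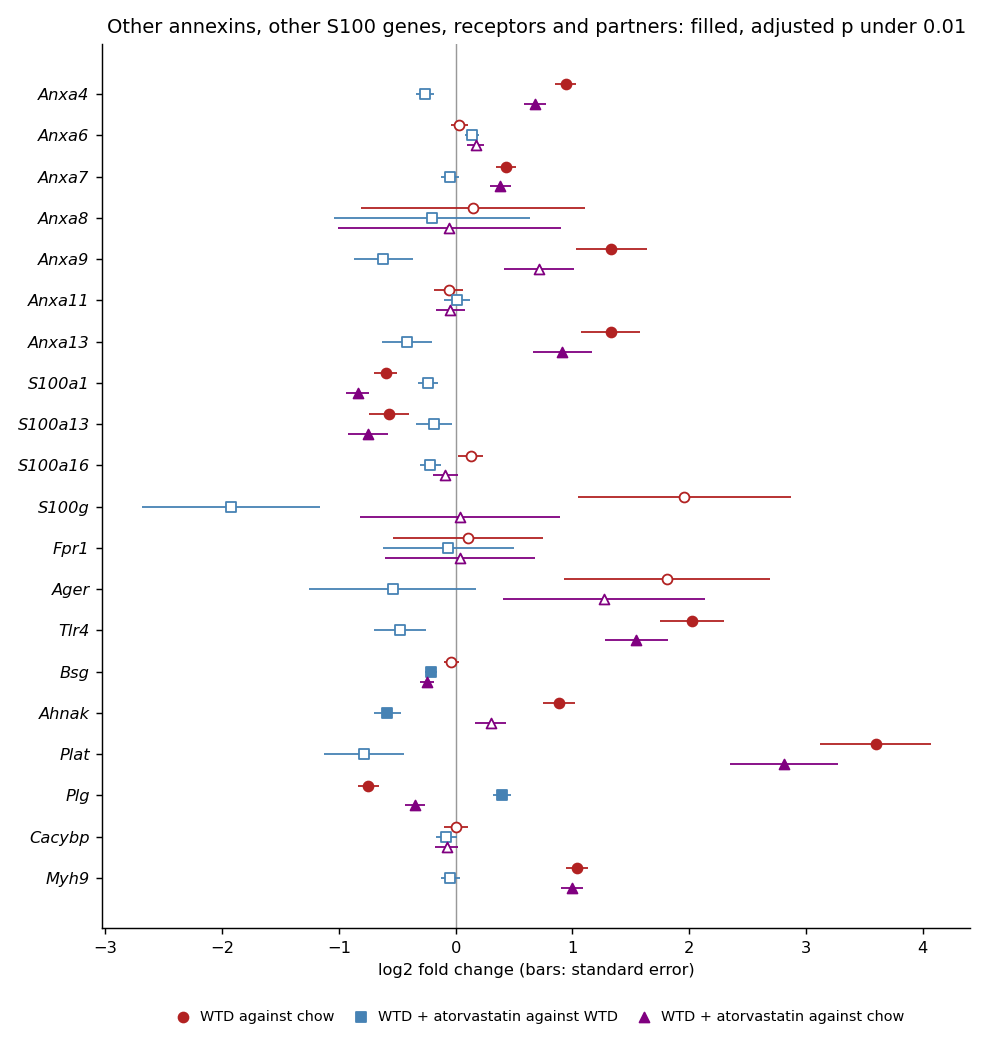
Log2 fold changes (horizontal axis) of the tested other annexins, other S100 genes, and receptors and partners of both families, in the 3 comparisons, with standard errors as bars. Filled symbols have an edgeR adjusted p under 0.01. Plat (3.59) and Tlr4 (2.02) are the largest called rises on WTD, and S100g, Ager and Anxa8 have wide error bars.

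Genes of the cell types in which annexins and S100 proteins are known moved in the same comparisons, and their part in the results above was not tested. For monocytes and macrophages, 8 of 9 tested markers were called higher in WTD than in chow (median log2 fold change 2.37) and 3 lower with atorvastatin (median −0.42). Their summed level was 175 to 277 CPM in chow, 914 to 2128 CPM in WTD and 726 to 1464 CPM in atorvastatin. Itgam was at 0 in every mouse, which is given as listed, with no statement on expression. Lyz2 (3.47), Cd68 (2.56) and Csf1r (1.73) had the smallest p values among these markers. All 8 bile duct cell markers were called higher in WTD (median 1.85, 108 to 189 CPM in chow and 212 to 899 CPM in WTD), and 1 was called lower with atorvastatin (median −0.65, 244 to 638 CPM).

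Of 10 markers of stellate cells and fibroblasts 6 were higher in WTD (median 1.43), with summed levels of 404 to 686 CPM in chow, 1153 to 2639 CPM in WTD and 1042 to 2488 CPM in atorvastatin, where 4 were lower and 1 higher than in WTD. Of 6 Kupffer cell markers 3 were higher in WTD (median 1.08), with 239 to 466 CPM in chow, 903 to 2376 CPM in WTD and 843 to 1489 CPM in atorvastatin. Between atorvastatin and WTD, 1 of them was higher (Clec4f, 0.62, SE 0.16, edgeR adjusted p = 0.00471) and 1 lower (Cd5l, −0.39, SE 0.08, edgeR adjusted p = 0.000715). Of 12 neutrophil markers only 5 were tested, and 3 of these (Csf3r, Ngp and Mmp8) were called higher in WTD. Ngp had 0 counts over all chow-fed mice and 341 over all WTD-fed mice, and Mmp8 had 21 and 489. Both passed the filter on counts mainly through the groups on WTD, so their direction against chow was largely fixed by the filter. Csf3r had 1585 and 7529 counts. The summed level of the 12 markers was 6.72 to 22.5 CPM in chow, 16.2 to 43.7 CPM in WTD and 15.0 to 37.1 CPM in atorvastatin. None of the 5 was called between the last 2 groups in edgeR (0 at an unadjusted p under 0.05).

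The other lists changed less or in other directions. For mesothelial, T cell and B cell markers (5, 6 and 5 tested), edgeR called none in any comparison, and at an unadjusted p under 0.05 between WTD and chow 1 mesothelial and 1 T cell marker were higher and 2 B cell markers lower. Endothelial markers split, with 2 higher and 2 lower of 7 in WTD and 2 higher of 7 with atorvastatin. Of 5 red blood cell genes, 4 were higher in WTD and none was called between atorvastatin and WTD in edgeR (0 at an unadjusted p under 0.05). All 8 hepatocyte markers were lower in WTD (median −0.87), and 4 of them were higher with atorvastatin than in WTD (median 0.40).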

How the data were processed

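Liver RNA of 42 mice was sequenced, and the authors trimmed read pairs with Trimmomatic, used STAR to align the pairs to GRCm38 and HTSeq 0.6.1p1 to count pairs by gene. The deposited values are these raw counts, without normalization or filter, for 54446 genes. The 42 single tables were identical to the table of all mice. Symbols, positions and exon lengths came from GENCODE vM21, which holds 54409 of the gene identifiers, and promoters came from RefSeq.

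Genes were kept by filterByExpr (minimum count 10, minimum total 15), and library sizes were scaled by TMM. Group differences were tested in edgeR 4.0.16 (R 4.3.3) by the quasi-likelihood method with robust estimation. All 42 mice entered 1 fit with 3 group means and no covariate. P values were adjusted by Benjamini and Hochberg over the 15574 tested genes, and adjusted p under 0.01 was called. CPM used TMM-scaled library sizes. Ratios of partner genes (0.5 added to each count) were tested with 100000 permutations, two-sided. Alternatives were DESeq2 1.42.0, limma-voom 3.58.1, other scalings, filters, thresholds and sample sets, and leaving out each mouse. Methods were tested on simulated data. Mice of a group were taken as replicates by their labels.

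The genes and the gene lists were chosen with earlier results of these data known. Those named are all 10 genes, the called genes of the other annexins, other S100 genes and receptors and partners, up to 3 genes of each cell type list by p in WTD against chow, list genes at 0 counts, and the 3 genes most like Anxa2 and S100a8, of which 1 is not reported here. Further genes of these lists were named, after their values were seen, where edgeR's unadjusted p was under 0.05, where a Kupffer cell gene was called with atorvastatin or where error bars were wide, and Fpr1 was named beside Fpr2. Figures were made with Python 3.11.15 and matplotlib 3.10.9.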

Additional observations from a re-analysis of the deposited data

Results flagged for a closer look

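In the chow group, 9 tested genes were searched for a mouse that stands far from the others of its group (n = 10), and 3 genes had one. The test flags about 1 in 20 groups by chance. The larger groups were not searched.

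Anxa3 was 19.2 CPM in chow-fed mouse 5, a sparse library, and 14.2 CPM in the next mouse. S100a6 was 7.98 CPM in chow-fed mouse 1 (134 counts) and 4.16 CPM in the next mouse. S100a9 was 6.58 CPM in chow-fed mouse 2 (103 counts), another sparse library, and 2.23 CPM in the next mouse. What sets these mice apart was not tested.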

How the results depend on the processing

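No paired analysis was possible because the mouse numbers do not link mice of different groups. Chow-fed mice have numbers of an AZ series, and both groups on WTD have numbers of a Gen series. The library numbers run in blocks by group. Label series and library order can therefore not be told apart from group in the comparisons with chow, nor library order in that of the 2 groups on WTD. Between WTD and chow, 7 to 8 of the 9 genes were called under 11 of 12 alternatives and when each mouse was left out in turn. With at least 10 counts required in every mouse, 4 were called, since only 5 of the 9 were tested. Of all tested genes, 13.8% to 43.9% were called under the 12 alternatives, and 31.6% to 34.7% when each mouse was left out. Between atorvastatin and WTD the count was 4 to 6, and 4 to 5 when each mouse was left out, but 0 when a log2 fold change of at least 1 was also required. The 6 came with limma-voom and with only the 2 groups in the fit, where 20% and 9.33% of all tested genes were called. The 0 came where only 0.642% of all tested genes were called, so it says little about the 9 genes. When each mouse was left out, that share was 5.86% to 10.2%. Against chow, with both directions counted, it was 4 to 8, and 5 to 7 when each mouse was left out. The 8, at an adjusted p under 0.05, were 7 higher and 1 lower (S100a10). The 7 with a mouse left out were 6 higher and 1 lower. Of all tested genes, 8.27% to 34.6% were called against chow under the 12 alternatives, and 23.3% to 26.3% when each mouse was left out. Without the sparse libraries the difference in log2 Anxa1/S100a11 between WTD and chow was −0.21 and that in log2 S100a8/S100a9 was 0.42, the r of Anxa2 and S100a10 in WTD was −0.30 and that of Anxa1 and S100a11 was 0.43. With all mice, the difference in log2 Anxa1/S100a11 between WTD and chow was −0.0921 as a difference of medians. The cause was not tested.

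Anxa1 was called lower with atorvastatin than in WTD by DESeq2, by limma-voom, with only the 2 groups in the fit, without the sparse libraries, and without chow-fed mouse 2, WTD-fed mouse 15 or treated mouse 7. S100a6 was called there by limma-voom and with only the 2 groups in the fit, and its call against chow was lost in the latter and with the share of lacking genes as a covariate. S100a8 lost its diet call without the sparse libraries and with only the 2 groups in the fit, and S100a9 lost its own with limma-voom. Between atorvastatin and chow, DESeq2 also called S100a8 higher, and limma-voom called S100a10 lower. S100a6, S100a8 and S100a9 rest on few counts, with 0 in some mice. These were not all shallow libraries: treated mouse 8, at 0 for S100a8 and S100a9, had 27471550 counts in all.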
